A study of Mus musculus with 24 samples.

Results

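Decanal and octanal are saturated straight-chain aldehydes of 10 and 8 carbons (C10H20O and C8H16O, molar masses 156.3 and 128.2). They were 2 of the 4 single odorants given to mice before the olfactory epithelium was sequenced. The responses compared here are decanal minus the no-odor control of its batch, the AD control, and octanal minus that of the other batch, the OC control. They rest on 12 of the 24 libraries, 3 in each of the 4 groups, and were taken over all 20018 genes that passed a filter on low counts.

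All mice were wild-type C57BL/6J males, 8 weeks old, kept alone for 4 h without odor and then exposed for 90 min. Exposed mice had 10 µL of the pure odorant (100%) on filter paper, and controls had empty filter paper. Each library is 1 biological replicate. Volume, purity and time were matched between the aldehydes, so there was 1 compound pair to compare. The vapour concentration is not given in the labels, and equal volumes hold unequal molar amounts. The other groups were acetophenone and the acetophenone-decanal mixture in the AD batch, and cis-3-hexenol and the octanal–cis-3-hexenol mixture in the OC batch. They entered the shared estimate of the spread between replicates. Tissue was perfused and homogenized in a buffer with the translation inhibitor cycloheximide, and RNA came from a detergent supernatant.

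Odorants bind receptors on the cilia of olfactory sensory neurons, each of which expresses a single receptor gene. Binding acts through a G protein and adenylyl cyclase to raise cyclic AMP, which opens a cation channel and, in turn, a calcium-activated chloride channel. Neurons that have fired raise immediate early genes within the hour and, more slowly, a set of neuronal genes that follows activity. The epithelium also carries enzymes that clear inhaled chemicals, and aldehydes can be oxidized there to acids by aldehyde dehydrogenases and oxidases or reduced to alcohols.

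The 12 libraries held 20730286 to 24802492 counts. Markers of mature neurons (Omp, 9330 to 13320 CPM, counts scaled to a common library total), sustentacular cells (Cyp2g1, 1380 to 2419) and basal cells (Krt5, 55.9 to 78.9) were present in every library, as the tissue label says. Blood and bone markers were present too (Hbb-bs, 175 to 1749, and Bglap, 60.8 to 202.9), while the vomeronasal marker Trpc2 reached at most 6.07. OC control 1 stood above the other OC controls in several early genes, and OC control 3 had a scaling factor of 0.895 where the other 11 libraries had 0.979 to 1.05. Gene levels below are CPM after this scaling (the trimmed mean of M values, TMM). Adjusted p-values are from edgeR's two-sided quasi-likelihood test with Benjamini-Hochberg adjustment over all tested genes, and a gene is called when its adjusted p is below 0.05.

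Nearly all genes called for both aldehydes, each against the controls of its own batch, went in opposite directions. With decanal 2277 genes rose (11.4% of those tested) and 1824 fell (9.11%), 20.5% in all. With octanal 3202 rose (16%) and 3245 fell (16.2%), 32.2% in all. Decanal libraries lay wholly above or below their controls in 40% of genes, and octanal libraries in 39.4%. The split of the decanal calls moved between fits. Rises made up 55.5% of them here, against 42.5% to 46.4% in the 12 fits that each left out 1 library. In those fits the median change over all genes went from 0.04 to at most 0.01. The genes that passed the filter changed there along with the scaling, and why the split moved was not tested. Both lists held 2542 genes, which is 62.0% of the decanal calls and 39.4% of the octanal calls. Of these, 34 moved the same way (0.17% of the genes tested, 0.829% of the decanal calls and 0.527% of the octanal calls) and 2508 opposite ways (12.5% of the genes tested, 61.2% and 38.9% of the 2 lists). Among the 34, 10 rose and 24 fell with both. Among the 2508, 1244 rose with decanal and fell with octanal, and 1264 did the reverse. Called or not, 69.7% of all tested genes had responses of opposite sign. Across genes the 2 log2 fold changes had a Spearman rho of -0.475.

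**Figure D1:**
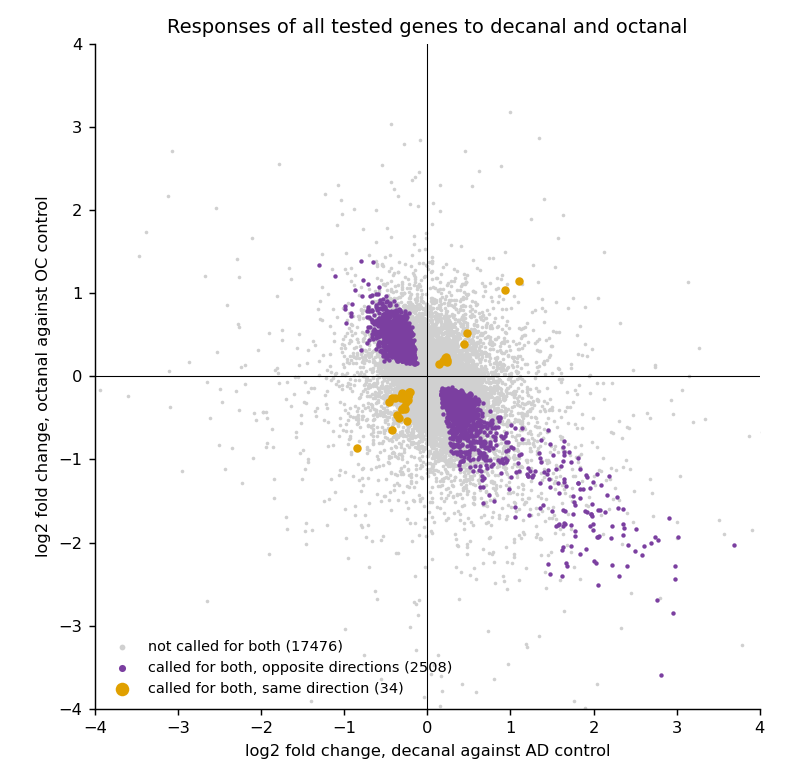
Each point is 1 of 20018 genes, with its log2 fold change for decanal against the AD control (x axis) and for octanal against the OC control (y axis). The 2508 genes called in opposite directions fill the upper left and lower right, and the 34 called in the same direction lie near the other diagonal. The axes stop at 4 log2 units in each direction, which leaves 56 genes outside.

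The difference between the 2 responses was tested gene by gene as a difference of differences. It was called in 7845 genes (39.2%), 4248 with the decanal response above the octanal response (21.2%) and 3597 below (18%). The difference exceeded 2-fold in 1630 of them, 1187 above and 443 below. All 2508 genes with opposite calls were among the 7845, and so was 1 of the 34 with the same direction. A further 1233 were called for decanal alone, 3045 for octanal alone and 1058 for neither. The mean of the 2 responses was called in 539 genes (2.69%), 263 up (1.31%) and 276 down (1.38%). This count moved between fits. It was 206 genes in the fit of the 12 libraries alone, 210 without AD control 1 and 1417 without OC control 2. Rises made up 48.8% of the calls here, 25.7% in the fit of 12 libraries and 20.9% to 33.8% over the leave-one-out fits. All 34 shared genes were among the 539, but 464 of the 539 were also called for octanal and 152 for decanal.

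The levels of all 4 groups in the genes with opposite responses are given only as a description. The choice of these genes uses the same libraries, and by itself favours the order of the controls and that of the exposed groups. In all 1244 genes that rose with decanal and fell with octanal, the OC controls stood above the AD controls, by a median of 0.61 log2 units, while decanal stood above octanal in 1210 of them, by a median of 0.20. The median level with decanal was 0.19 log2 units below that of the OC controls, and the median level with octanal was 0.19 above that of the AD controls. The 1264 genes of the reverse kind were the mirror image. The OC controls stood below the AD controls in all of them, by a median of 0.53, and decanal below octanal in 1255, by a median of 0.24. On the first principal component of the 12 libraries, which held 34.8% of the variance, the AD controls lay at -33.3 to -19.7, octanal at -16.5 to -8.47, decanal at -1.53 to 11.4 and the OC controls at 21.5 to 43.3. The 2 exposed groups thus lay between the 2 sets of unexposed mice. The labels put each control in the batch of its odorant, with decanal given only in the AD batch and octanal only in the OC batch. A difference between the aldehydes thus cannot be told apart from an effect of the batch or of the control set on odorant minus control. Nor can the effects of batch and control set be told apart from each other.

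When the other single odorant of each batch took the place of the control (decanal minus acetophenone against octanal minus cis-3-hexenol), 5224 genes were called in the difference. All 2508 genes kept the sign of their difference there and 2289 were called. That comparison uses the same decanal and octanal libraries.

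Shared responses were few, and those named were mostly small, apart from the rises of S100a2 and Kmo. They included the desaturases Scd1 and Scd2, which introduce the double bond into newly made saturated fatty acids. Scd1 stood at 60.0, 64.9 and 59.6 CPM in the AD controls and at 47.2, 50.3 and 45.7 with decanal. In the other batch it stood at 61.2, 68.2 and 72.5 CPM in the OC controls and at 49.0, 51.1 and 46.1 with octanal. All 6 exposed libraries lay below all 6 controls. The log2 fold change was -0.36 (SE 0.09, adjusted p = 0.00406) for decanal and -0.46 (SE 0.09, adjusted p = 0.000233) for octanal. The 95% interval of the difference between them, -0.15 to 0.35, includes 0, and also includes a difference of nearly the size of the response. Scd1 averaged 50.5 CPM with acetophenone and 49.2 CPM with cis-3-hexenol, close to the levels with the aldehydes.

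Scd2 fell by 0.31 on the log2 scale with decanal (SE 0.08, adjusted p = 0.00904) and by 0.23 with octanal (SE 0.08, adjusted p = 0.0329). Its levels were 126, 113 and 114 CPM against 104, 95.6 and 84.3 CPM in the AD batch. In the OC batch they were 131, 118 and 157 CPM against 116, 115 and 113 CPM. Neither batch had overlap, although OC control 2 stood within 2 CPM of the highest octanal library. The call for octanal held in 8 of the 12 fits that each left out 1 library.

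Of the falls, the rule for named genes put first Dkk2, which encodes a secreted modulator of Wnt signalling. Dkk2 fell by 0.42 (SE 0.14, adjusted p = 0.0374) with decanal and by 0.64 (SE 0.14, adjusted p = 0.000987) with octanal. Akap12, a scaffold for protein kinase A, fell by 0.34 and 0.50. Myh9, the heavy chain of non-muscle myosin, fell by 0.47 and 0.30, and the water channel gene Aqp1 fell by 0.26 and 0.27. Rapgef2, an exchange factor for Rap GTPases, fell by 0.30 and 0.39. The phosphatase gene Ptpn13 fell by 0.28 and 0.37, Rusc2 by 0.43 and 0.26, and the prostaglandin synthase gene Ptgs1 by 0.28 and 0.39.

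The shared rises were led by S100a2, a calcium-binding protein gene. It stood at 0.54, 1.09 and 1.02 CPM in the AD controls and at 1.68, 1.91 and 2.08 with decanal. In the OC batch it stood at 1.32, 1.12 and 1.20 CPM without odor and at 3.21, 2.45 and 2.44 with octanal. The groups did not overlap in either batch. The log2 fold changes were 1.1 (SE 0.31, adjusted p = 0.0143) and 1.15 (SE 0.30, adjusted p = 0.00472). The interval of the difference was wide, -0.97 to 0.88.

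Kmo, the kynurenine hydroxylase of tryptophan breakdown, rose by 0.94 (adjusted p = 0.0425) and 1.04 (adjusted p = 0.0225) from levels near 1 CPM, but its call held in 4 of 12 leave-one-out fits for decanal and 8 for octanal. Paqr3, a Golgi membrane protein gene, rose by 0.44 (adjusted p = 0.00612) and 0.39 (adjusted p = 0.00972). Its levels were 10.2 to 11.1 CPM in the AD controls and 13.6 to 16.2 CPM with decanal. They were 10.7 to 11.04 CPM in the OC controls and 13.0 to 15.2 CPM with octanal. The remaining named rises were of at most 0.24 log2 units in either aldehyde. They were Mogs (the first glucosidase of N-glycan trimming), Bcl10 (a signalling adaptor towards NF-κB), Ap3s1 (a subunit of the AP-3 vesicle coat), Pnrc1, Pole4 (a subunit of DNA polymerase epsilon) and March5 (a mitochondrial ubiquitin ligase).

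**Figure D2:**
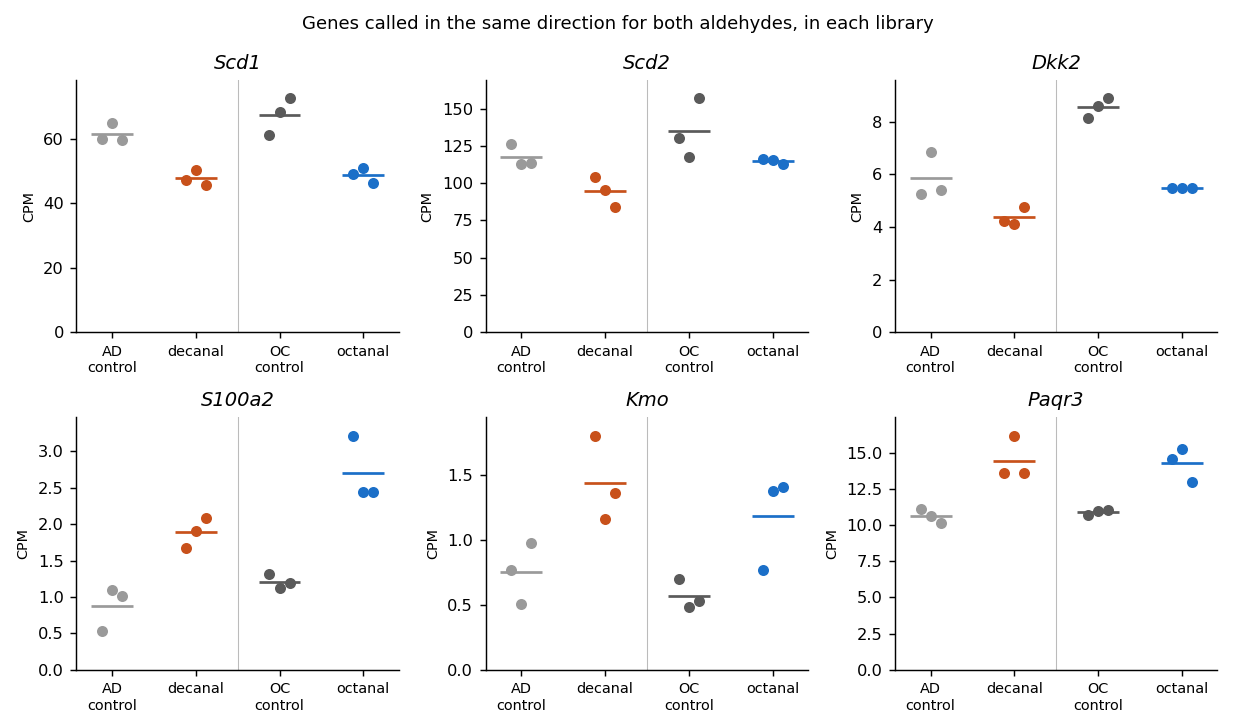
Level in CPM (y axis, starting at 0) of 6 genes called in the same direction for both aldehydes, with 1 point per library and a bar at the group mean for the AD control, decanal, OC control and octanal groups. For Scd1 all exposed libraries lie below 52 CPM and all controls above 59 CPM, and for Paqr3 all exposed libraries lie above all controls.

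Few of the shared calls were firm. For both aldehydes at once, 4 of the 34 (Scd1, Rapgef2, Ptpn13 and Phf2, a histone demethylase gene) were called in all 12 fits that left out 1 library, against 1243 of the 2508 opposite genes. Transcript length moved with these calls: the median was 6090 bases for the 24 genes that fell, 1809 for the 10 that rose and 3045 for all tested genes with a length. With offsets for transcript length and GC content, 6 of the 34 (Scd1, Scd2, Akap12, Aqp1, Rapgef2 and Mogs) and 1467 of the 2508 were still called for both. Myh9 no longer fell with octanal there, at 0.02.

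Among the gene lists, opposite responses were largest in genes of blood, marrow and mitochondria. Of 16 tested genes of neutrophils and marrow, 14 rose with decanal and the same number fell with octanal, with medians of 1.92 and -1.81, where all genes had medians of 0.04 and -0.02. Of 10 red cell genes 9 rose and 9 fell, with medians of 1.94 and -1.61. Over all genes 11.4% rose with decanal and 16.2% fell with octanal, shares that also stand beside the mitochondrial, ribosomal, bone and collagen lists below. In bulk tissue, fewer cells of a type and less RNA per cell cannot be told apart.

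The neutrophil granule genes Camp, Elane, Mpo and Ngp and the eosinophil granule gene Prg2 stood at the head of this group. Camp stood at 0.27, 1.22 and 0.94 CPM in the AD controls and at 7.42, 6.80 and 4.85 with decanal. It stood at 7.54, 4.72 and 8.41 CPM in the OC controls and at 0.91, 2.62 and 0.73 with octanal. Decanal libraries were thus as high as OC controls, and octanal libraries nearly as low as AD controls. The log2 fold changes were 2.99 (SE 0.45, adjusted p = 9.86e-05) and -2.28 (SE 0.42, adjusted p = 0.000223), and they differed by 5.26 (SE 0.62, adjusted p = 6.68e-07). For Prg2 the responses were 3.69 and -2.03. Other genes of this kind were Elane (2.61 and -2.04), Retnlg (2.69 and -2.002), Ngp (2.49 and -2.11), Chil3 (2.42 and -2.03), Mpo (2.22 and -1.80) and the red cell antigen gene Rhd (2.05 and -1.94). Hbb-bs, an adult beta-globin, moved by 2.07 and -1.61.

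Ltf, which glands also express, stood at -0.40 and -0.46 and was called for neither, and Cd177 at 0.26 and -0.71 was not called either. The other 14 were called in both. Ltf reached 566 CPM in AD control 3, against 126 and 165 CPM in the other AD controls, and this sets the summed level of the list in that library.

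Transcripts encoded by mitochondrial DNA made up 0.260% ± 0.0237 (SD, n = 3) of the reads counted in AD controls and 0.775% ± 0.0211 with decanal. They took 0.794% ± 0.174 in the OC controls and 0.417% ± 0.0392 with octanal. Neither pair of groups overlapped, and the exact permutation test gave p = 0.1 for each, the smallest that 3 against 3 allows. Of 15 tested transcripts 14 rose with decanal and 13 fell with octanal, with median log2 fold changes of 1.65 and -1.01. The large ribosomal RNA mt-Rnr2 rose by 1.84 (SE 0.17) and fell by 1.46 (SE 0.17). The cytochrome oxidase subunit mt-Co1 stood at 485, 453 and 554 CPM without odor and at 1666, 1525 and 1444 with decanal. In the OC batch it stood at 1504, 1667 and 1237 CPM without odor and at 769, 791 and 886 with octanal. Its rise of 1.64 (SE 0.14) exceeded its fall of 0.85 (SE 0.14). Of the 15 it was the 1 transcript whose mean response was called (0.39, adjusted p = 0.0348), a call that held in 1 of the 12 leave-one-out fits.

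Nuclear genes of the ribosome and the respiratory chain followed the same pattern at a smaller size. Of 80 cytosolic ribosomal protein genes 79 rose with decanal (median 0.49), 50 fell with octanal (median -0.26) and 1 rose. Rpl18 rose by 0.49 (SE 0.07) and fell by 0.42 (SE 0.07). Among 85 nuclear respiratory chain genes 63 rose and 1 fell with decanal, and 46 fell and 6 rose with octanal. Among 78 mitochondrial ribosomal proteins 53 rose with decanal, and 29 fell and 6 rose with octanal. With offsets for length and GC the rises with decanal came to 51 of 80, 20 of 85 and 28 of 78. Over all genes 1423 of 20018 rose with decanal there. In the same 3 lists 30, 29 and 21 genes then fell with octanal, and 6, 4 and 9 rose. Over all genes 2579 fell with octanal there and 2747 rose.

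Bone cell genes moved to a like extent with each aldehyde, and collagens more with octanal. Of 13 bone cell genes 9 rose with decanal (median 0.72) and 10 fell with octanal (median -0.75), and osteocalcin, Bglap, moved by 0.91 (SE 0.15) and -1.04 (SE 0.15). Of 18 collagen genes 15 fell with octanal (median -0.83), but with decanal 4 rose and 1 fell (median 0.15). Col1a2, a chain of type I collagen, rose by 0.66 with decanal (adjusted p = 0.00304) and fell by 1.20 with octanal (adjusted p = 3.36e-06). Col4a1, a chain of basement membrane collagen, stood at -0.39 with decanal (adjusted p = 0.0654) and fell by 0.84 with octanal. Its mean response was called at -0.61 (adjusted p = 0.00416). Of 14 macrophage genes 8 rose with decanal (11.4% of all genes) and 7 fell with octanal (16.2% of all genes), all 7 in the opposite set. With offsets for length and GC, 3 macrophage genes rose with decanal and 4 fell with octanal (1423 and 2579 of 20018 for all genes). The part that the amount of marrow, blood or bone in the tissue had in the other results was not tested. Of 15 lymphocyte genes 6 rose with decanal (11.4% of all genes) and 2 fell with octanal (16.2% of all genes). With the offsets these counts were 3 and 2. Endothelial genes (10) fell in 4 and ensheathing glia genes (12) in 5 with octanal (16.2% of all genes), while with decanal 0 and 1 were called (20.5% of all genes). Of 8 horizontal basal cell genes, 0 were called with octanal and 1 with decanal.

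**Figure D3:**
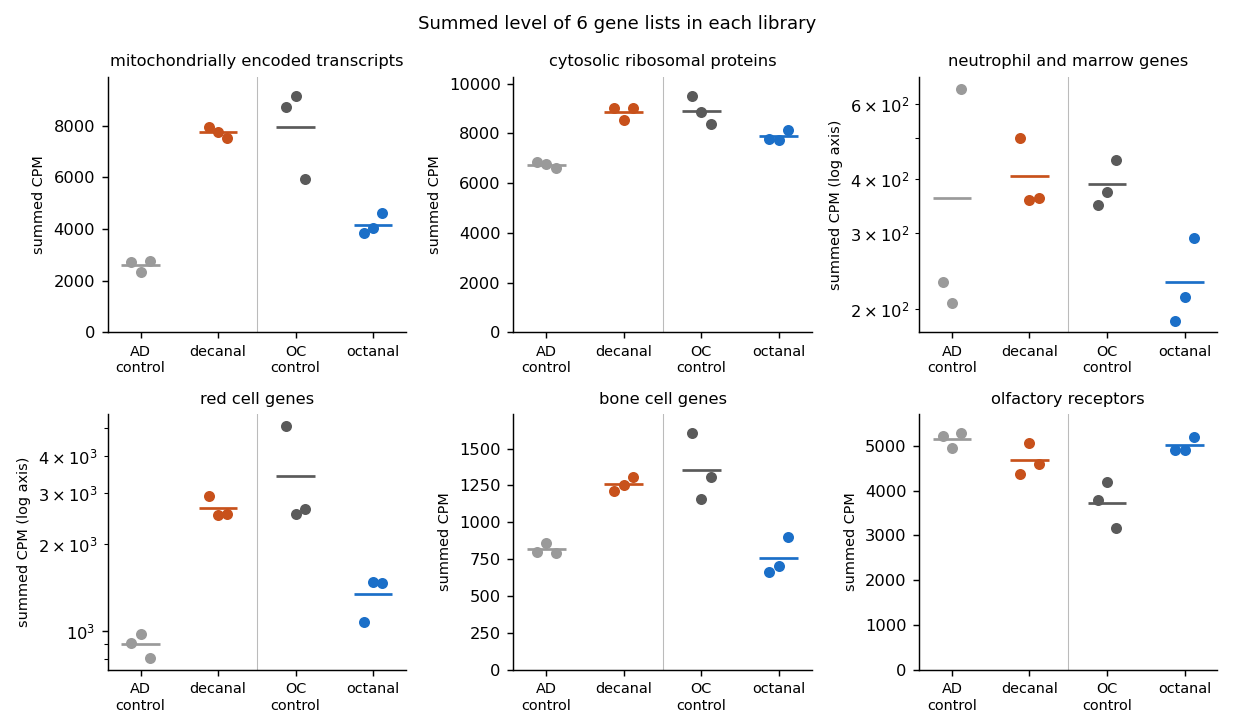
Summed CPM of 6 gene lists (y axes, the marrow and red cell panels on a log axis), with 1 point per library and a bar at the group mean for the 4 groups. Mitochondrial transcripts sum to 2327 to 2756 CPM in the AD controls, 7529 to 7950 with decanal, 5953 to 9149 in the OC controls and 3866 to 4611 with octanal, and the high AD control in the marrow panel is the library with high Ltf.

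In the reverse direction, lower with decanal and higher with octanal, the named genes other than Npcd moved by 0.66 to 1.39 log2 units, and the median transcript length was 3975 bases, against 1801.5 for the genes that rose with decanal and fell with octanal. Polr2b, the second largest subunit of RNA polymerase II, stood at 80.6, 84.9 and 79.3 CPM in the AD controls and at 42.0, 48.2 and 43.7 with decanal. It stood at 33.7, 33.2 and 34.7 CPM in the OC controls and at 70.7, 67.0 and 71.1 with octanal. All 4 groups were apart, with octanal next to the AD controls and decanal next to the OC controls. The fold changes were -0.87 (SE 0.10, adjusted p = 9.30e-06) and 1.04 (SE 0.10, adjusted p = 2.27e-07), and they remained called with the length and GC offsets, at -0.78 and 0.91.

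Syn1, which encodes the synaptic vesicle protein synapsin, moved by -0.78 (SE 0.11) and 1.16 (SE 0.11), and Rdh1, a retinol dehydrogenase gene, by -0.997 (SE 0.22) and 0.81 (SE 0.22). Of 55 clustered protocadherins, which give neurons surface identities, 5 fell and 1 rose with decanal, where 9.11% of all genes fell, while 18 rose and 1 fell with octanal, where 16% of all genes rose. Pcdhga10 moved by -1.30 (SE 0.39) and 1.34 (SE 0.42), and Pcdhga3 by -0.80 (SE 0.25) and 1.39 (SE 0.27). Protocadherins of a cluster share their last exons. Npcd and Pakap are read-through loci that share exons with their neighbours, so the expected counts of all these genes depend on how shared reads were divided. Npcd stood at 4.27 to 4.69 CPM in the AD controls and at most at 0.13 CPM with decanal. It stood at most at 0.10 CPM in the OC controls and at 2.54 to 3.68 with octanal. Its fitted responses depend on the prior count at such levels and are no measure of size. Pakap moved by -0.66 (SE 0.16) and 1.38 (SE 0.17).

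Some enzymes of classes that could act on the odorants moved oppositely. Of 19 aldehyde dehydrogenase genes 7 fell with decanal (9.11% of all genes, median -0.17). With octanal 7 rose and 1 fell (16% and 16.2% of all genes, median 0.16). The difference was called in 10 below and 1 above (18% and 21.2% of all genes). Of these genes 5 were in the opposite set (12.5% of all genes). Signs were opposite in 18 of the 19, and in 69.7% of all genes. Aldh3a2, the fatty aldehyde dehydrogenase, which oxidizes medium- and long-chain aldehydes, stood at 133, 130 and 130 CPM in the AD controls and at 112, 103 and 98.8 with decanal. In the OC batch it stood at 75.4, 83.8 and 82.6 CPM without odor and at 121, 120 and 119 with octanal. Without odor the 2 batches were well apart, and the 2 exposed groups lay between them. The fold changes were -0.32 (SE 0.06, adjusted p = 0.000818) and 0.57 (SE 0.06, adjusted p = 8.52e-07), a difference of -0.90 (SE 0.09, adjusted p = 9.02e-08).

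Aldh6a1, a mitochondrial semialdehyde dehydrogenase of valine breakdown, moved by -0.52 and 0.84, and Aldh18a1, an enzyme of proline synthesis, by -0.33 and 0.65. Aldh2, the mitochondrial enzyme that clears acetaldehyde, fell by 0.20 with decanal (adjusted p = 0.0372) and stood at 0.10 with octanal (adjusted p = 0.259). The retinal dehydrogenase Aldh1a1 stood at -0.04 and 0.16, called for neither, and the interval of its difference was -0.49 to 0.08. Aldh5a1, the succinate semialdehyde dehydrogenase, ran the other way, at 0.17 (adjusted p = 0.333) and -0.44 (adjusted p = 0.0037). Of 5 aldehyde oxidase genes Aox3 (-0.47 and 0.41) and Xdh, the xanthine dehydrogenase (-0.35 and 0.45), were called in opposite directions.

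Genes for reductases, which turn aldehydes and ketones into alcohols, had a difference called above 0 in 6 of 17 (21.2% of all genes). Akr7a5, an aldehyde reductase, rose by 0.24 (adjusted p = 0.00412) with decanal and fell by 0.17 (adjusted p = 0.0241) with octanal. With offsets for length and GC its responses were -0.01 and 0.10, neither called. Ptgr1, a reductase of reactive aldehydes and of prostaglandins, stood at 0.25 with decanal (adjusted p = 0.379) and fell by 0.59 with octanal (adjusted p = 0.0186).

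NRF2 is the transcription factor that answers to electrophiles, aldehydes among them. Of 15 of its targets, 5 fell and 1 rose with decanal (9.11% and 11.4% of all genes, median -0.11). With octanal 7 rose and 1 fell (16% and 16.2% of all genes, median 0.12). G6pdx, the first enzyme of the pentose phosphate path, stood at 173, 196 and 191 CPM in the AD controls and at 146, 151 and 147 with decanal. It stood at 94.3, 113 and 107 CPM in the OC controls and at 174, 186 and 183 with octanal. The octanal libraries lay within the range of the AD controls, and the low values were those of the OC controls. Txnrd1, thioredoxin reductase, moved by -0.36 (SE 0.06) and 0.50 (SE 0.07), and Gclc, the rate-limiting enzyme of glutathione synthesis, by -0.32 (SE 0.08) and 0.51 (SE 0.08). Nqo1, a quinone reductase often read as the mark of NRF2 activity, stood at 0.21 (adjusted p = 0.632) and -0.22 (adjusted p = 0.579). It was at 157 CPM in OC control 1 and at 418 and 450 CPM in the other OC controls. Slc7a11, the cystine transporter, stood at -0.32 with decanal and fell by 1.17 with octanal (adjusted p = 0.000551).

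Lipid genes held both patterns. Of 27 genes of fatty acid and sterol synthesis 10 fell with decanal (9.11% of all genes). With octanal 15 rose and 4 fell (16% and 16.2% of all genes). Scd1 and Scd2, above, were the 2 that fell with both, and 6 moved oppositely (12.5% of all genes). Acly, which makes cytosolic acetyl-CoA, fell by 0.55 (SE 0.08) and rose by 0.67 (SE 0.08). Sqle, the squalene epoxidase, fell by 0.26 (SE 0.07) and rose by 0.69 (SE 0.07). Fasn, the fatty acid synthase that feeds Scd1, fell by 0.32 with decanal (adjusted p = 0.0323) and stood at -0.05 with octanal. Of 21 genes of fatty acid oxidation 9 fell with decanal (9.11% of all genes), and 9 rose and 1 fell with octanal (16% and 16.2%). Cpt1a, the carnitine transferase that admits fatty acids to mitochondria, moved by -0.46 (SE 0.09) and 0.51 (SE 0.09). Of 26 nasal xenobiotic enzymes 5 fell and 2 rose with decanal (9.11% and 11.4% of all genes). With octanal 12 rose and 1 fell (16% and 16.2% of all genes). The cytochrome Cyp2f2 stood at -0.29 with decanal and 0.73 with octanal.

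**Figure D4:**
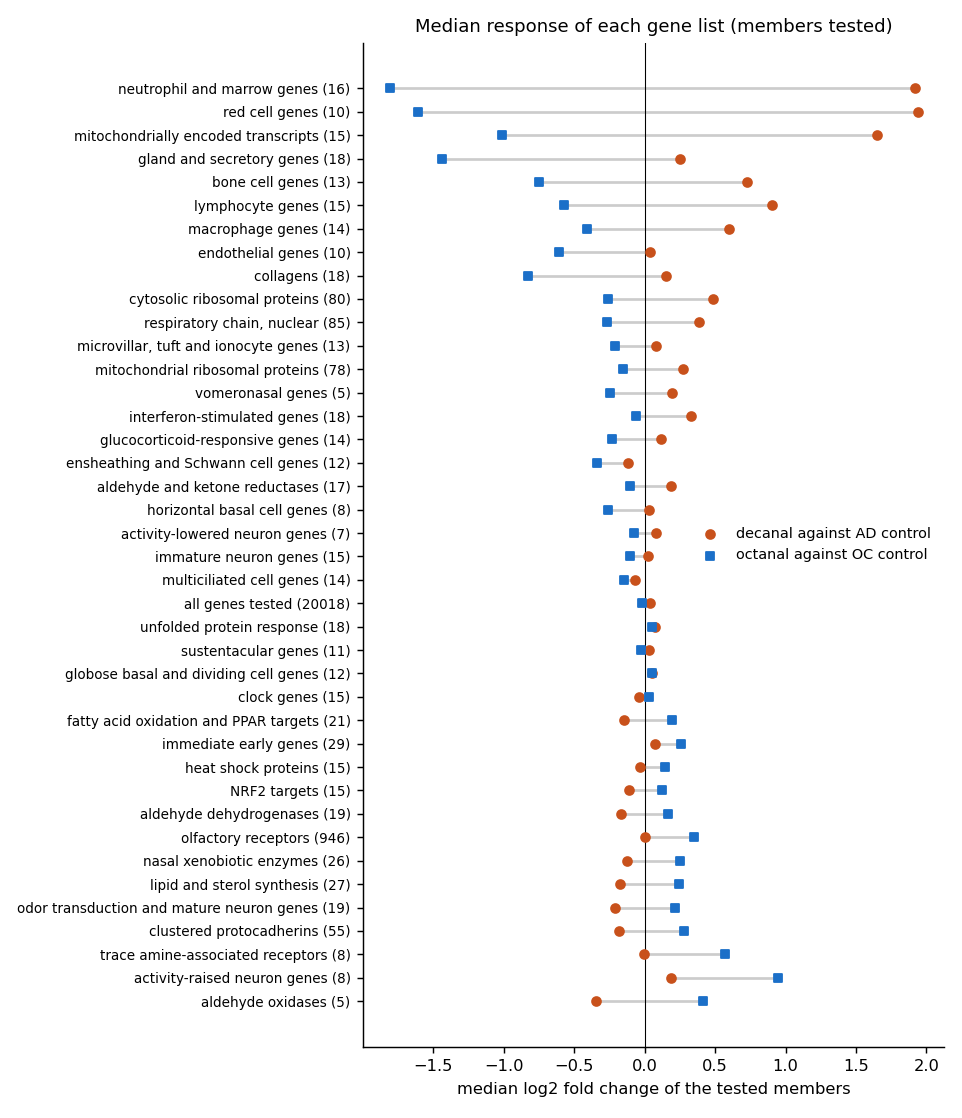
Median log2 fold change (x axis) of the tested members of each gene list for decanal (circles) and octanal (squares), with lists ordered by the median difference between the 2 responses and the number of members in parentheses. Marrow, red cell and mitochondrial lists sit at the top with decanal above 0 and octanal below, and the list of activity-raised neuron genes, second from the bottom, is above 0 for both (0.19 and 0.95).

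Transduction genes of the sensory neuron were divided as well. Of 19, 9 fell and 2 rose with decanal (9.11% and 11.4% of all genes), and 9 rose and 3 fell with octanal (16% and 16.2%). The adenylyl cyclase Adcy3 moved by -0.38 (SE 0.09) and 0.58 (SE 0.09), the phosphodiesterase Pde1c by -0.58 (SE 0.08) and 0.68 (SE 0.08), and the chloride channel Ano2 by -0.35 (SE 0.11) and 0.73 (SE 0.11). The G protein subunit Gng13 ran the other way, at 0.54 (SE 0.11) and -0.40 (SE 0.11). Omp, the marker of mature neurons, stood at 8906 to 9573 CPM in the AD controls and 9751 to 10730 with decanal. It stood at 12390 to 13770 CPM in the OC controls and 9363 to 9873 with octanal. The octanal libraries were thus at the level of the AD controls. The responses were 0.15 (adjusted p = 0.0567) and -0.45 (adjusted p = 3.62e-06). Gap43, of immature neurons, stood at 0.16 (adjusted p = 0.219) and -0.26 (adjusted p = 0.028).

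Olfactory receptors were called about as often as other genes or less. Of 946 tested, 155 rose with octanal, near the 16% of all genes, and 4 fell (16.2% of all genes), with a median of 0.35. With decanal 32 fell and 5 rose (9.11% and 11.4% of all genes), with a median of 0.00. The difference was called below 0 in 149 (18% of all genes) and above 0 in 6 (21.2% of all genes). None was called in the same direction for both and 17 in opposite directions (12.5% of all genes). With offsets for length and GC, 2747 of 20018 genes rose with octanal and 3233 had a difference below 0. Of the receptors, 78 rose and 6 fell with octanal there, with a median of 0.18. The difference was then called below 0 in 86 receptors and above 0 in 11. As a group they made up 0.515% ± 0.0169 (SD, n = 3) of the reads counted in AD controls and 0.468% ± 0.0354 with decanal (exact permutation p = 0.2). They took 0.371% ± 0.051 in the OC controls and 0.501% ± 0.0173 with octanal (exact permutation p = 0.1, the smallest possible), so that the OC controls were the low group.

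Olfr1463 stood at 38.1, 40.5 and 44.1 CPM in the AD controls and at 23.9, 32.4 and 30.4 with decanal. It stood at 18.3, 25.3 and 19.8 CPM in the OC controls and at 38.8, 40.4 and 44.7 with octanal. The octanal and AD control values overlapped. The fold changes were -0.50 (SE 0.11, adjusted p = 0.00203) and 0.97 (SE 0.11, adjusted p = 1.31e-06). Olfr1257 moved by -0.71 (SE 0.18) and 1.11 (SE 0.18). The mean response was called in 4 of 946 receptors, all up, where 1.31% of all genes rose. These were Olfr1200, Olfr789, Olfr168 and Olfr971, named after their values were seen, and for none of them was decanal called. In Olfr1200 the mean response was 0.49 (adjusted p = 0.0141), from 0.16 with decanal (adjusted p = 0.476) and 0.83 with octanal (adjusted p = 9.23e-05). Olfr2, the I7 receptor known to bind octanal and other aliphatic aldehydes, stood at 2.08, 1.89 and 2.12 CPM in the AD controls and at 3.14, 2.78 and 3.02 with decanal. It stood at 4.00, 3.12 and 2.68 CPM in the OC controls and at 2.76, 3.48 and 2.74 with octanal. It was called for neither, at 0.55 (adjusted p = 0.0585) and -0.13 (adjusted p = 0.671), and the difference of 0.68 had an interval of 0.09 to 1.28 and adjusted p = 0.0627.

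Of 29 tested immediate early genes, 8 rose and 3 fell with octanal (16% and 16.2% of all genes), while 2 rose and 1 fell with decanal (11.4% and 9.11% of all genes). Their promoters carry sites for CREB, the factor that cyclic AMP and calcium activate. The 250 bases before the start site are shown for 4 early genes that rose with octanal and whose mean response was called, because they show how densely the core of that site can occur. Capitals mark TGACG or its reverse complement CGTCA. The sequences are RefSeq's, on GRCm38.p6, and run 5′ to 3′ along the gene. Fosb is at chr7:19310046-19310295, minus strand, Nr4a1 at chr15:101266596-101266845, plus strand, Nr4a2 at chr2:57124004-57124253, minus strand and Egr4 at chr6:85513590-85513839, minus strand.
Fosb: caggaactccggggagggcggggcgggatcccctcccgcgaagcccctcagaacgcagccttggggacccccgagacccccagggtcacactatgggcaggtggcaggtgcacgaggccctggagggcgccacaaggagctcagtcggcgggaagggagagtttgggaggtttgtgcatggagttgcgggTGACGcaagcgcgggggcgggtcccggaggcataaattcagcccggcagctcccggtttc
Nr4a1: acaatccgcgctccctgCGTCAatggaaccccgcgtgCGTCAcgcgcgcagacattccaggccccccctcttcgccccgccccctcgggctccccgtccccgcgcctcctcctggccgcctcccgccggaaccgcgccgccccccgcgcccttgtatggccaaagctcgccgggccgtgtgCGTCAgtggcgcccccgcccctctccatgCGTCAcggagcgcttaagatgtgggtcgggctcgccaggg
Nr4a2: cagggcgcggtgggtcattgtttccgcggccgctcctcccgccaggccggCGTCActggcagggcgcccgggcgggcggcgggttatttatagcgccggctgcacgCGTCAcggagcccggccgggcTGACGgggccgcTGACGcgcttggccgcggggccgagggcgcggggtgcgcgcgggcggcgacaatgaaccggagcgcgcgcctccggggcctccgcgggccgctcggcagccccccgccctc
Egr4: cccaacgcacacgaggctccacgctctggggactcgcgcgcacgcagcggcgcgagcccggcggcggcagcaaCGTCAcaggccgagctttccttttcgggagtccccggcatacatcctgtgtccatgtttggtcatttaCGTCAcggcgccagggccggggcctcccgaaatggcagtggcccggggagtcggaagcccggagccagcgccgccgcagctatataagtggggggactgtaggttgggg

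The core occurred 1 time before Fosb, 4 times before Nr4a1 and before Nr4a2, and 2 times before Egr4. It was present in 18 of the 24 listed early genes with a promoter in the table, and in 17.8% of all 32851 promoter windows. An early gene counted if any of its windows held the core, while the 17.8% counts single windows. The 2 are thus not like measures. Of the 7 such genes that rose with octanal 6 held it, and of the other 17 it was in 12. Of the 5 such genes whose mean response was called 4 held it, and those 4 are the ones shown. Both the motif and these genes were chosen after the values were seen, and a match is only a match of letters.

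Fosb, a partner of Jun in the AP-1 factor, stood at 0.19, 0.29 and 0.24 CPM in the AD controls and at 0.54, 0.41 and 0.51 with decanal. It stood at 0.74, 0.05 and 0.14 CPM in the OC controls and at 4.30, 2.75 and 1.97 with octanal. Both exposed groups lay above their controls, octanal by far more. The log2 fold change was 0.999 (SE 0.56, adjusted p = 0.221) with decanal and 3.18 (SE 0.48, adjusted p = 2.26e-05) with octanal, and they differed by -2.18 (95% interval -3.76 to -0.61, adjusted p = 0.0256). Nr4a1, an orphan nuclear receptor, stood at 23.98, 23.6 and 26.4 CPM in the AD controls and at 31.8, 23.3 and 27.1 with decanal. It stood at 39.7, 16.4 and 20.2 CPM in the OC controls and at 139, 99.1 and 66.8 with octanal. The decanal libraries overlapped their controls and the octanal libraries did not. The responses were 0.15 (adjusted p = 0.762) and 1.99 (SE 0.29, adjusted p = 1.52e-05), with a difference of -1.83 (95% interval -2.67 to -1.0, adjusted p = 0.00083). Its relative Nr4a2 stood at -0.03 and 1.53, with a difference of -1.56 (adjusted p = 0.000458).

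The 2 control sets overlapped in both Nr4a genes. Egr4, a zinc finger factor, was called for octanal at 1.5 (adjusted p = 0.00194) and stood at 0.94 with decanal (adjusted p = 0.0813), and a difference was not shown (interval -1.64 to 0.52). Dusp6, a phosphatase that damps ERK signalling, stood at -0.08 and 0.45 (difference -0.52, adjusted p = 4.93e-05). Ier2, an early transcriptional regulator, rose by 0.22 with decanal (adjusted p = 0.0153) and fell by 0.22 with octanal (adjusted p = 0.00921). The other rise with decanal was that of the Krüppel-like factor Klf2, at 0.33 (adjusted p = 0.0411), and the other falls with octanal were those of the AP-1 members Fosl2 (-0.40) and Jund (-0.36). The early gene that fell with decanal was Arc, at -0.67 (adjusted p = 0.00331). Npas4 was called for neither (0.89 and -0.75). With offsets for length and GC, 0 early genes rose with decanal and 0 fell with octanal (1423 and 2579 of 20018 for all genes). In that fit 8 early genes rose with octanal and 1 fell with decanal (2747 and 1412 of 20018 for all genes).

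OC control 1 stood at 23.3 CPM for Fos against 5.31 and 6.21 CPM in the other OC controls, and at 36.2 CPM for Egr1 against 15.1 and 15.7. With it in place, Fos was at 0.94 with octanal (adjusted p = 0.0823) and Egr1 at 0.94 (adjusted p = 0.0064). Without it, Fos rose by 1.97 (adjusted p = 0.0006) and Egr1 by 1.48 (adjusted p = 6.76e-05), Fosb by 4.88 and Nr4a1 by 2.47. The early genes that rose with octanal then came to 10, against 8 without OC control 2. OC control 1 was singled out for its high values in these genes. Leaving it out raises these differences by itself, so the larger rises and smaller p-values are a description only. With decanal Fos stood at -0.21 and Egr1 at -0.55 (adjusted p = 0.145), both by the fit of all libraries.

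**Figure D5:**
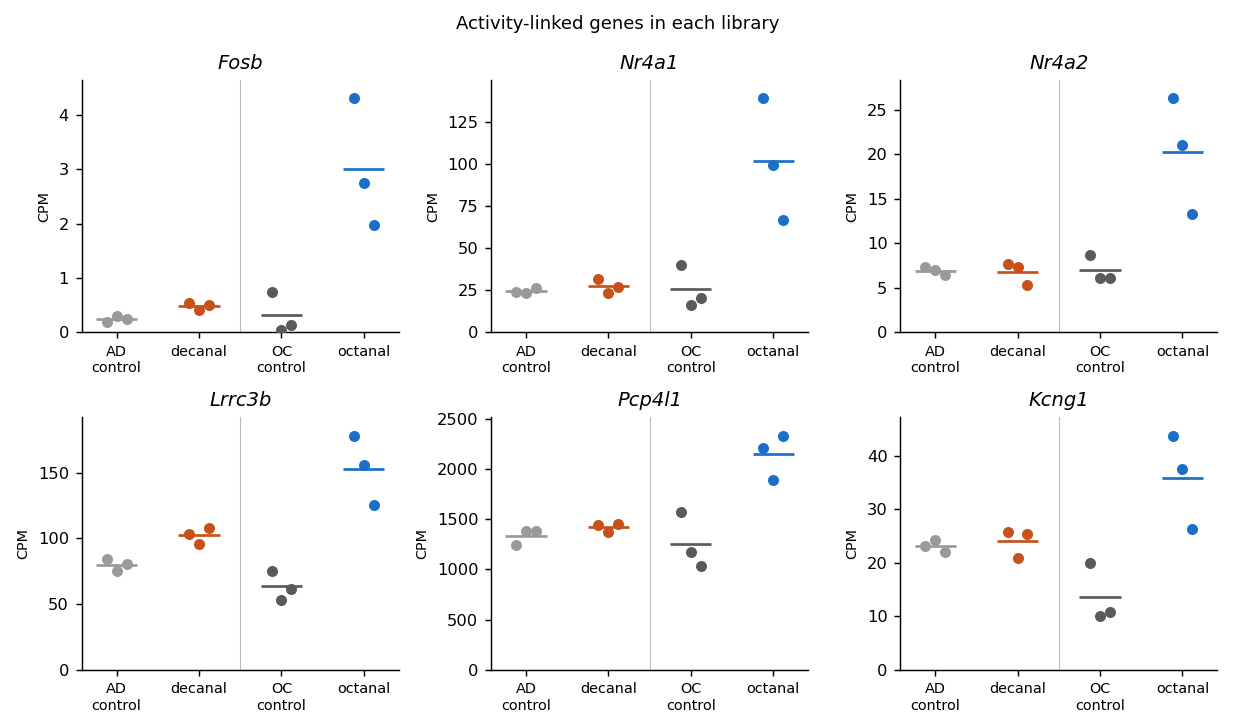
Level in CPM (y axis, starting at 0) of 3 immediate early genes and 3 slower genes of active neurons, with 1 point per library and a bar at the group mean for the 4 groups. In all 6 panels the octanal libraries lie above the OC controls, while the decanal libraries lie near the AD controls, apart from those in the Fosb and Lrrc3b panels.

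Slower genes that follow activity rose in the mean of the 2 responses. Of 8 tested, 6 had a called mean response, all up, against 1.31% of all genes, and the median response was 0.19 with decanal and 0.95 with octanal. With octanal 5 rose and 1 fell (16% and 16.2% of all genes). With decanal 1 rose (11.4% of all genes). Lrrc3b, a leucine-rich repeat protein gene, stood at 84.3, 75.3 and 80.4 CPM in the AD controls and at 104, 95.5 and 108 with decanal. It stood at 75.5, 53.2 and 61.6 CPM in the OC controls and at 178, 156 and 126 with octanal. Neither batch had overlap. The rise was 0.35 with decanal (SE 0.13, adjusted p = 0.0647) and 1.27 with octanal (SE 0.14, adjusted p = 6.67e-07). The difference was -0.92 (95% interval -1.31 to -0.52, adjusted p = 0.000489), and the mean response 0.81 (adjusted p = 0.000258).

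S100a5, a calcium-binding protein gene, was the 1 member called for decanal, at 0.41 (SE 0.11, adjusted p = 0.00779), and stood at 0.24 with octanal (adjusted p = 0.0827), with an interval of the difference of -0.14 to 0.48. With offsets for length and GC these values were -0.03 and 0.52. The potassium channel gene Kcng1 stood at 0.05 with decanal and rose by 1.38 (SE 0.23) with octanal. Pcp4l1, a relative of a calmodulin regulator, stood at 0.09 and rose by 0.77 (SE 0.11), and Sema7a, an axon guidance gene, stood at 0.15 and rose by 1.13 (SE 0.19). In each of these 3 the difference was called. Pcdh10 stood at 0.66 with decanal (adjusted p = 0.0732) and rose by 1.12 with octanal (adjusted p = 0.00165). Kirrel2 was called for neither (0.13 and 0.58), and Pcdh17 fell by 0.52 with octanal. Without OC control 1, in which Kirrel2 stood at 645 CPM against 258 and 278 CPM, it rose by 1.13 (adjusted p = 0.000207). Leaving out the high control raises this difference by itself.

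Some genes were called for 1 aldehyde and in the difference, with the other response under 0.1 log2 units in size. With decanal Gucy1b1, a subunit of the nitric oxide receptor, fell by 1.30 (SE 0.36, adjusted p = 0.0128) and stood at 0.02 with octanal. Cad, which begins pyrimidine synthesis, fell by 0.60 with decanal (adjusted p = 0.000694), and the procollagen protease gene Adamts14 rose by 1.96 (adjusted p = 0.00758). The co-chaperone gene Dnajb3 rose by 0.63 with decanal (adjusted p = 0.0105). With octanal Megf10, a receptor for the engulfment of dead cells, fell by 1.39 (adjusted p = 0.00169) and Fam167b by 1.81 (adjusted p = 0.00155).

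Against the other single odorant of each batch, with no control library in the comparison, the 2 aldehydes together had 1 called gene, or 0.005%, by edgeR, and DESeq2 called 163. In edgeR 2122 genes had a raw p below 0.05. The gene edgeR called was Il33, a nuclear alarmin of epithelial cells, which was lower by 0.29 with the aldehydes (adjusted p = 0.034). No gene was called with a replicate block, nor without decanal 1, 2 or 3 or octanal 1. Against their own controls the aldehydes moved it in opposite directions. Il33 stood at 482, 497 and 473 CPM in the AD controls and at 411, 418 and 414 with decanal. It stood at 302, 348 and 309 CPM in the OC controls and at 537, 554 and 538 with octanal. The fold changes were -0.22 (SE 0.06, adjusted p = 0.0157) and 0.77 (SE 0.06, adjusted p = 1.11e-07). Its means were 664 CPM with acetophenone and 506 CPM with cis-3-hexenol, so that decanal was below acetophenone while octanal was slightly above cis-3-hexenol.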

How the data were processed

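Polyadenylated RNA was sequenced in 24 libraries, 12 of them compared here. The authors deposited expected counts per Ensembl gene, 1 table per batch of 12 libraries. The submitters' processing notes name STAR 2.7.10b, Salmon 1.10.1, R 4.4.2 and GRCm39; their roles and the annotation are not given in the sources used here. Of the deposited values 12.8% and 12.6% were fractional and rounded to whole counts. GENCODE M21 (GRCm38) gave symbols, transcript lengths and GC content for 52029 of 57010 gene IDs.

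In R 4.3.3, edgeR 4.0.16 (filterByExpr, TMM) fitted all 24 libraries in 8 groups without a block. Tests were two-sided, with Benjamini-Hochberg adjustment over 20018 genes; an SE is the log2 fold change over the square root of F. Shares of counts had an exact permutation test. A simulation with known fold changes checked the pipeline.

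The members, gene lists and rules were chosen with earlier results of these data known. The rule named up to 8 shared genes per direction by their smaller response, up to 8 opposite genes per direction by the difference, 4 per aldehyde and direction for responses of 1 aldehyde, 3 per list and 15 fixed genes. Shared genes Scd2, Aqp1, Ptgs1, Kmo and Phf2 and other list members were chosen after their values were seen. Results of a few genes that the rule or lists include are not reported here. Alternatives were DESeq2 1.42.0 and its size factors, other filters, a robust fit, a replicate block, fits of fewer libraries, length and GC offsets (loess span 0.3), other odorants as reference and leaving out each library.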

Additional observations from a re-analysis of the deposited data

Results flagged for a closer look

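The responses to decanal and octanal, each against the controls of its own batch, differed by a test of the difference itself in 7845 genes (edgeR's quasi-likelihood test, adjusted p under 0.05). Among genes called in opposite directions, those with the decanal response farthest above the octanal response, on the log2 scale, were Prg2 (5.72), Camp (5.26), Retnlg (4.7), Elane (4.65), Ngp (4.6), Chil3 (4.45), Mpo (4.02) and Rhd (3.99). Those farthest below were Npcd (-12.2), Pcdhga10 (-2.65), Pcdhga3 (-2.19), Pakap (-2.04), Syn1 (-1.94), Polr2b (-1.91), Olfr1257 (-1.82) and Rdh1 (-1.81). The value for Npcd depends on the prior count, since 2 of the 4 groups were at or near 0. The aldehyde, its batch and its control set cannot be told apart.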

How the results depend on the processing

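The counts of genes called for decanal, for octanal, in their difference and in opposite directions stayed within 1.5 times under DESeq2 and its size factors, 1 CPM in 3 libraries, no filter, a robust fit and the 12 libraries alone. The exceptions were 2552 genes for decanal with length and GC offsets and the replicate block, and 5224 in the difference with the other odorants as reference. The mean response was less stable, at 1152 genes without a filter, 1096 by DESeq2's Wald test, 206 in the fit of 12 libraries, 133 with length and GC offsets and 79 with these and the replicate block. Shared genes numbered 82 without a filter, 11 with length and GC offsets and 12 with these and the block. The aldehydes against the other odorants gave 354 genes without a filter, 163 by DESeq2 and 110 in the 12-library fit. Without a filter 40.5% of decanal calls were rises, against 55.5%.

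Leaving out 1 library gave 2734 to 4662 genes for decanal (2734 without decanal 3), 5138 to 6500 for octanal, 7101 to 7886 in the difference, 1865 to 2570 in opposite directions, 20 to 70 shared (20 without octanal 3, 70 without OC control 2), 210 to 1417 in the mean response and 0 to 3 against the other odorants. All but the fits without OC control 1 and 2 put the mean response at 342 genes or fewer.

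Whether replicate numbers pair the samples was not settled. Same-numbered deviations correlated at 0.158, 0.357 and 0.0386 for AD control and decanal, and different-numbered ones at -0.359 to 0.291. For OC control and octanal the same-numbered values were 0.201, -0.166 and 0.0908, and the different-numbered ones -0.225 to 0.143. With the replicate block the mean response was called in 328 genes and the aldehydes against the other odorants in 0, while decanal had 3873, octanal 6249 and the difference 7670.

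Of 263 called values of single genes, 175 were called under every alternative run and 5 changed sign, all with length and GC offsets. Without and with the block these were Myh9 with octanal (0.0244 and 0.0234), S100a5 with decanal (-0.0311 in both) and Akr7a5 with decanal (-0.0109 and -0.0113), with octanal (0.1 and 0.102) and in the difference (-0.111 and -0.113). The cause was not tested. With 3 libraries a group, p-values measure the spread between these mice, and genes under about 1 CPM have wide intervals.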
